A study of Mus musculus with 9 samples.

Results

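The 47 genes described here drive or mark the cell cycle, and they were read out across retinal organoids of 3 mouse stem cell lines on 3 days of differentiation. They were taken by name from the gene spots of the arrays, 1 probe per gene (the brightest), out of 23594 genes tested in all. Of the 47, 20 copy DNA or supply its building blocks (replication genes), 18 act in mitosis and 9 are cyclins, kinases, transcription factors or markers that span the cycle (regulators). All 47 passed the filter on dim probes, set at 3 of the 9 arrays well above background, and 46 were so on all 9. The exception was Ccne2, above background on 3 arrays.

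The organoids are floating aggregates of mouse ES or iPS cells that form retinal tissue. The lines were wild type (WT), a knockout of Bhlhb4 (B4KO; the gene is now called Bhlhe23) and a knockout of Islet-1 (Isl1KO), both made to hold fewer bipolar cells, and each line was sampled once on differentiation days 10, 16 and 23 (DD10, DD16 and DD23). A sample was RNA pooled from 5 organoids, hybridised to 1 single-colour array, so no line had a replicate on any day; precision is limited by how few arrays there are. The labels give no further treatment and do not say whether each line is 1 clone.

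A dividing cell loads the Mcm helicase onto DNA in G1 with the help of Cdc6 and Cdt1, starts it in S phase by adding Cdc45 and the Gins complex, and copies DNA with polymerases held by the Pcna clamp, while ribonucleotide reductase and thymidylate synthase supply nucleotides. In G2 and mitosis, cyclin B with Cdk1, the Aurora and Polo kinases, kinesins and centromere proteins condense and part the chromosomes, until Cdc20 and Ube2c let the anaphase-promoting complex destroy the cyclins. In the developing retina these genes are expressed by progenitor cells, which stop dividing as they become neurons and glia. In whole organoids, fewer dividing cells and less RNA of these genes per cell cannot be told apart.

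Levels are given as log2 of the spot intensity over the 75th percentile of its array, so 0 is the brightness that 75% of gene spots do not exceed, and a difference of 1 is a change of 2-fold. Of the gene spots of an array, from 57.3% to 67.8% were well above background and 0 were saturated. Changes between days come from a limma model with line and day as additive terms over all 9 arrays. They are means over the 3 lines, and their standard errors (SE) measure how far the lines departed from a shared course, since there are no replicates. A gene is said to have risen or fallen where its Benjamini-Hochberg adjusted p over all genes was under 0.05. WT and Isl1KO shared a slide and B4KO had a slide of its own, so a difference of B4KO from the other lines and a difference between slides cannot be told apart. Each day also had its own array column, so day and column cannot be told apart. The probes for the knocked-out genes do not check the lines, as the deleted parts are not given in the sources used here. The brighter Isl1 probe read -0.65, -1.88 and -1.58 in Isl1KO relative to WT at DD10, DD16 and DD23, and a dimmer one 0.37, -0.76 and -0.26. The Bhlhe23 probe was well above background on 3 of 3 WT arrays, 1 of 3 B4KO arrays and 2 of 3 Isl1KO arrays.

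The members fell in stages. Between DD10 and DD16, 31 of 47 fell, 2 rose and 14 did not pass, against 18.8% of all genes that fell and 21.9% that rose. Their median change was -0.68, where the median of all genes was 0.03. Between DD16 and DD23 all 47 passed as lower (median -1.44), against 21.9% of all genes that fell and 19.3% that rose, although for the dim Ccne2 this rests on a value below background. Over the whole course from DD10 to DD23, 46 of 47 fell (median -2.04), against 29.2% of all genes that fell and 31.6% that rose, and Ccnd1 did not pass. At DD23 the median member was left with 25.6% of its DD10 signal in WT, 27.9% in B4KO and 17.7% in Isl1KO.

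**Figure D1:**
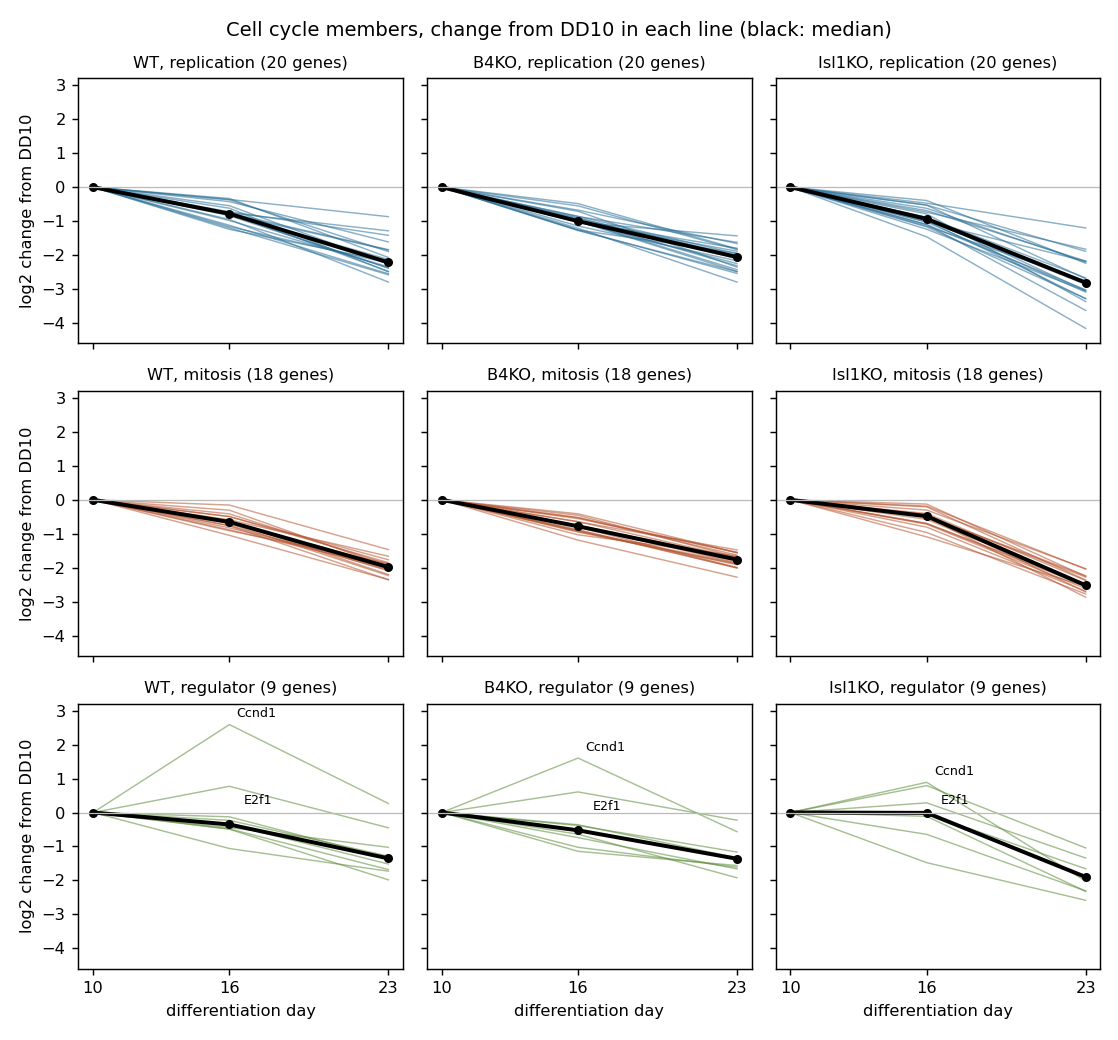
Change of each member from its own DD10 level (vertical axis, log2) over differentiation day (horizontal axis) in WT, B4KO and Isl1KO; thin lines are genes, split into 20 replication, 18 mitosis and 9 regulator genes, and the black line is the median of the panel. Replication and mitosis genes only went down, while Ccnd1 and E2f1 peaked at DD16 in every line.

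The arrays of successive days hardly overlapped. For 40 of the 47 members all 3 DD16 arrays lay below all 3 DD10 arrays, against 22.2% of all genes, and these included all 20 replication genes and 17 of 18 mitosis genes. The exceptions were Aurkb, Mki67, Ccna2, Ccnd1, Ccne2, E2f1 and E2f2. For all 47 the 3 DD23 arrays lay below the 3 DD16 arrays, against 23.9% of all genes, and for 45 below the 3 DD10 arrays, against 28.1%. Within lines, 43 members were lower at DD16 than at DD10 in all 3 lines (32.3% of all genes), 47 at DD23 than at DD16 (35%) and 46 at DD23 than at DD10 (36.4%). Values at least 2-fold lower in all 3 lines came in 5 members from DD10 to DD16 (2.59% of all genes), in 25 from DD16 to DD23 (1.95% of all genes) and in 44 over the whole course (6.5% of all genes).

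The count of early falls depended on the arrays fitted. Without the DD16 array of B4KO or the DD10 array of Isl1KO, 16 members passed as lower from DD10 to DD16, and 17 without the DD16 array of WT; with WT and Isl1KO alone, which share a slide, it was 14. Leaving out any other single array gave 22 to 36. Of the 47 members, 45 had a negative change with the 75th percentile, quantile or normexp settings, and 44 with arrays centred on housekeeping genes. That last centring moved the median of all genes to 0.22 (from 0.03) at DD16 and to 0.32 (from 0.05) over the whole course, which lowered the share of falls among all called genes from 46.2% to 21.2% at DD16, from 53.2% to 42.8% between DD16 and DD23 and from 48% to 28.3% over the whole course; 24, 46 and 45 members still fell.

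Of the 10 helicase genes 8 fell to DD16 and all 10 to DD23. Mcm5, a subunit of the Mcm ring (probe on chromosome 8, 77651350 to 77651410, build mm9), read 2.87, 1.92 and 0.07 in WT on the 3 days, 3.13, 1.92 and 0.34 in B4KO, and 3.31, 1.85 and -0.85 in Isl1KO. No array of a later day reached an earlier one. Its change over the whole course, -3.25 (SE 0.28, adjusted p = 0.000248), was the largest of the 47, a 9.50-fold fall. Mcm3, of the same ring, read 3.90, 3.28 and 1.40 in WT, 4.23, 3.52 and 1.88 in B4KO, and 4.16, 3.38 and 0.80 in Isl1KO. It fell by 0.71 (SE 0.21) to DD16 and by a further 2.03 (SE 0.21) to DD23. The other ring subunits Mcm2, Mcm4 and Mcm7 fell at both steps as well, by 0.83, 0.97 and 0.95 and then by 1.65, 1.64 and 1.02, whereas Mcm6 had -0.49 to DD16 (adjusted p = 0.0900) and fell by 1.66 after it.

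The partners of the ring went the same way with 1 exception. Gins1, a subunit of the Gins complex, read 2.01, 0.81 and -0.57 in WT, 2.29, 1.01 and -0.20 in B4KO, and 1.95, 0.78 and -1.32 in Isl1KO. It had lost 1.22 (SE 0.19, adjusted p = 0.00514) by DD16, a fall of at least 2-fold in every line. Gins2 fell by 1.0 and 1.46 at the 2 steps, and Mcm10, which helps the loaded helicase to start, by 0.92 and 1.83. Cdc45 read -2.01, -2.38 and -2.88 in WT, -1.62, -2.48 and -3.58 in B4KO, and -1.92, -2.39 and -3.12 in Isl1KO. It changed by -0.56 to DD16 (adjusted p = 0.0644) and fell by 0.78 (SE 0.20, adjusted p = 0.0234) after it, the smallest late fall of a replication gene. That call was lost without any 1 of the DD16 arrays or the DD23 array of Isl1KO (adjusted p from 0.0662 to 0.0806), and the other Cdc45 probe, brighter on the DD10 and DD16 arrays and dimmer at DD23, had mean changes of -0.80 and -1.84.

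Of the licensing genes, Cdt1 had the smallest early change of the replication set. It read 3.14, 2.81 and 1.07 in WT, 3.39, 2.90 and 1.57 in B4KO, and 3.29, 2.89 and 1.05 in Isl1KO. The fall of 0.40 to DD16 (SE 0.11, adjusted p = 0.0347) was lost when any 1 of the 6 arrays of DD10 and DD16 or the DD23 array of WT was left out (adjusted p from 0.0543 to 0.123), and the fall of 1.64 to DD23 was not. Cdc6, which loads the ring together with Cdt1, fell by 0.81 and 0.90. The fall of Cdt1 came mostly after DD16, and that of Cdc6 was spread over both steps.

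The 3 polymerase and primase genes and the clamp fell at both steps. Pole, the catalytic subunit of the leading-strand polymerase, read 2.56, 1.44 and 0.01 in WT, 2.97, 1.71 and 0.43 in B4KO, and 2.69, 1.59 and -0.94 in Isl1KO. Its fall over the whole course was 2.91 (SE 0.26, adjusted p = 0.000277), the largest of the replication genes after Mcm5. Pcna read 4.04, 3.61 and 2.43 in WT, 4.59, 3.91 and 2.93 in B4KO, and 4.03, 3.50 and 2.14 in Isl1KO, and fell by 0.54 and 1.18 (SE 0.10). Prim1, the primase, fell by 0.87 and 1.44, and Pola1, the polymerase that extends its primers, by 0.80 and 0.89.

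The 4 nucleotide supply genes fell at both steps. Tyms, thymidylate synthase, read 2.73, 1.48 and 0.54 in WT, 2.99, 1.73 and 1.05 in B4KO, and 2.80, 1.56 and -0.25 in Isl1KO. Its fall of 1.25 to DD16 (SE 0.24, adjusted p = 0.00972) was the largest early fall of all members with the probes used and was followed by 1.15. Other Tyms probes, above background on 9 arrays, had mean early changes of -0.76 and -1.18, against -1.22 for the Gins1 probe used. Tk1, thymidine kinase, fell by 1.07 and 1.31, and the ribonucleotide reductase subunits Rrm1 and Rrm2 by 0.77 and 1.0 and then by 1.11 and 1.52. The 4 genes had 48.4% of their median log2 fall behind them at DD16 in WT and 57.8% in B4KO, against 32.8% and 42.8% for the 10 helicase genes; in Isl1KO the shares were 31.3% and 34.2%.

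**Figure D2:**
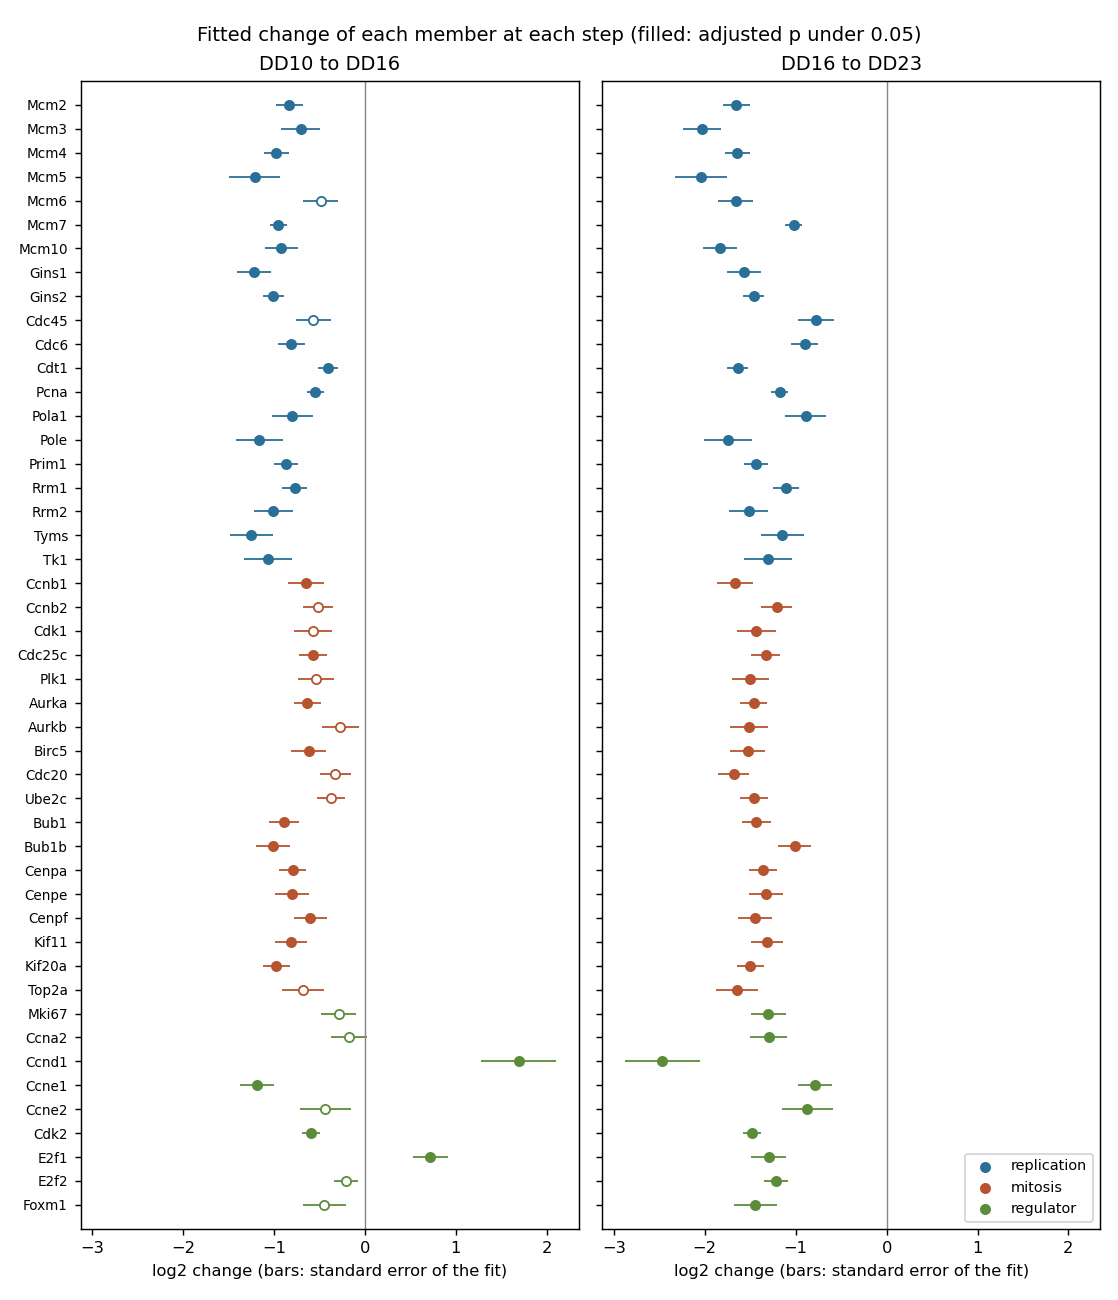
Fitted log2 change (horizontal axis) of each of the 47 members (rows, in order of role) from DD10 to DD16 on the left and from DD16 to DD23 on the right, as the mean over 3 lines with its standard error; filled points had an adjusted p under 0.05. Of the 47 points, 33 are filled on the left, 2 of them above 0 (Ccnd1 and E2f1), and all 47 on the right.

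Fewer mitosis genes than replication genes passed at DD16. Of 18, 11 fell to DD16 (median -0.62) and 18 to DD23 (median -1.45), where 18 of 20 replication genes had fallen to DD16 (median -0.89) and 20 to DD23 (median -1.49). The 7 mitosis genes that did not pass at DD16 were Ccnb2, Cdk1, Plk1, Aurkb, Cdc20, Ube2c and Top2a, with changes from -0.27 to -0.68. Aurkb, the kinase of the chromosomal passenger complex, had the smallest: it read 0.45, 0.29 and -1.02 in WT, 0.98, 0.46 and -0.64 in B4KO, and 0.60, 0.48 and -1.65 in Isl1KO. After its change of -0.27 (adjusted p = 0.332), which was -0.46 without the DD16 array of Isl1KO and -0.10 without that of B4KO, it fell by 1.51.

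For cyclin B, its kinase and the exit machinery the larger fall came after DD16, as in the median of all members (-0.68, then -1.44). Cdc20, the activator of the anaphase-promoting complex (probe on chromosome 4, 118105534 to 118105593, minus strand, build mm9), read 4.09, 3.78 and 2.12 in WT, 4.29, 3.83 and 2.60 in B4KO, and 4.13, 3.92 and 1.77 in Isl1KO. The change of -0.32 to DD16 did not pass (adjusted p = 0.178), and its fall of 1.68 (SE 0.17, adjusted p = 0.00161) to DD23 was the largest late fall of a mitosis gene. Ccnb1, cyclin B, read 3.95, 3.25 and 1.72 in WT, 4.09, 3.29 and 2.09 in B4KO, and 3.82, 3.39 and 1.11 in Isl1KO, and fell by 0.64 and then by 1.67. Its sister Ccnb2 read 3.14, 2.55 and 1.48 in WT, 3.39, 2.75 and 1.92 in B4KO, and 3.09, 2.79 and 1.06 in Isl1KO, and had the smallest fall of a mitosis gene over the whole course, 1.72 (SE 0.17). Ube2c, the ubiquitin-conjugating enzyme of the same complex, changed by -0.37 (adjusted p = 0.0972) and fell by 1.46. Cdk1, the kinase that cyclin B activates, and its activating phosphatase Cdc25c fell late by 1.43 and 1.33, Plk1 and Aurka by 1.5 and 1.46, and Birc5, the survivin subunit of the passenger complex, by 1.53.

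The spindle checkpoint, kinesin and centromere genes fell at both steps. Bub1b, a checkpoint kinase homologue, read 0.36, -0.55 and -1.51 in WT, 0.56, -0.47 and -1.09 in B4KO, and 0.60, -0.49 and -1.94 in Isl1KO. It fell by 1.01 (SE 0.18) to DD16, the largest early fall of a mitosis gene, and by 1.01 again to DD23, the smallest late one. Kif20a, a kinesin of cytokinesis, read 2.15, 1.38 and -0.21 in WT, 2.45, 1.26 and 0.17 in B4KO, and 2.25, 1.29 and -0.52 in Isl1KO, and its whole fall of 2.47 (SE 0.15, adjusted p = 8.86e-05) was the largest of the mitosis genes. Bub1, Kif11, Cenpa, Cenpe and Cenpf fell to DD16 by 0.89, 0.81, 0.79, 0.80 and 0.60, and then by 1.43, 1.31, 1.36, 1.32 and 1.45.

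Top2a, the topoisomerase that untangles sister chromatids, read 3.60, 2.95 and 1.51 in WT, 3.98, 3.1 and 1.97 in B4KO, and 3.63, 3.13 and 0.76 in Isl1KO. Its early change of -0.68 did not pass (SE 0.23, adjusted p = 0.0613) but did without the DD16 or the DD23 array of Isl1KO (adjusted p = 0.0458 and adjusted p = 0.0103). The late fall was 1.65 (adjusted p = 0.00374). Its other 3 probes, all above background on 9 arrays, disagreed on the early step, with mean changes of -0.34, -0.05 and 0.41, and fell late by 1.88, 1.54 and 2.10. The early Top2a change thus depended on the probe and the late one did not.

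Set against each other, the 14 core replication genes (Mcm, Gins, Cdc45, Pcna, Rrm and Tyms) had lower median changes than the 18 mitosis genes in every line. From DD10 to DD16 the median change of the replication core minus that of mitosis was -0.13 in WT, -0.22 in B4KO and -0.50 in Isl1KO (mean -0.28 ± 0.19, SD over 3 lines). From DD16 to DD23 it was -0.11, -0.17 and -0.01 (mean -0.10 ± 0.08, SD). Over the whole course it came to -0.33, -0.45 and -0.43 (mean -0.40 ± 0.065, SD, n = 3 lines). The sign was the same in all 3 lines at every step, and these medians have no test. The early mean was -0.18 without the DD10 or the DD16 array of Isl1KO, and the late mean -0.06 without the DD16 or the DD23 array of B4KO. With all 20 replication genes the late difference was -0.03 in WT, -0.16 in B4KO and 0.03 in Isl1KO, so its sign was not shared, and the whole-course mean was -0.28.

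The promoters of the 2 sets differed in the short sequences they hold. E2F sites, bound by E2F factors, are best known from replication genes, and the CHR element with CCAAT boxes, bound by the DREAM complex and NF-Y, from mitosis genes. The RefSeq table of promoters (GRCm38.p6; 250 bases before to 50 after a start) held 36 of the 47 members. Both strands were searched for TTTCCCGC, TTTCGCGC, TTTGCCGC and TTTGGCGC (E2F site), TTTGAA and TTCGAA (CHR) and CCAAT. An E2F site was in 7 of 16 replication promoters (43.75%) and 1 of 15 mitosis promoters (6.667%), against 2.605% of 27025 genes. A CHR element was in 3 of 16 (18.75%) and 12 of 15 (80%), against 21.66% of genes, and CHR with CCAAT in 3 of 16 (18.75%) and 12 of 15 (80%), against 8.614%. A CCAAT box, with or without CHR, was in 12 of 16 (75%) and 14 of 15 (93.33%), against 41.06%. The bases before the start of Mcm5 (the largest fall), Mcm6 (the most E2F matches), Cdc20 (the largest late fall of a mitosis gene) and Top2a (the most CHR matches) are printed to show this contrast, on the strand of the gene, with capitals at every match to any of the 3 kinds of sequence. They lie at chr8:75109259-75109508, plus strand (Mcm5), chr1:128359706-128359955, minus strand (Mcm6), chr4:118437344-118437593, minus strand (Cdc20) and chr11:99024190-99024439, minus strand (Top2a).
Mcm5: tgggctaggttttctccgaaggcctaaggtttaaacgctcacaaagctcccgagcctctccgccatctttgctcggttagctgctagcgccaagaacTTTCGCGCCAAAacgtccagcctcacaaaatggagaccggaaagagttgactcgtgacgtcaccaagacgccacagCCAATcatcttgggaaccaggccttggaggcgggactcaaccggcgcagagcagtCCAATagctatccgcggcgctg
Mcm6: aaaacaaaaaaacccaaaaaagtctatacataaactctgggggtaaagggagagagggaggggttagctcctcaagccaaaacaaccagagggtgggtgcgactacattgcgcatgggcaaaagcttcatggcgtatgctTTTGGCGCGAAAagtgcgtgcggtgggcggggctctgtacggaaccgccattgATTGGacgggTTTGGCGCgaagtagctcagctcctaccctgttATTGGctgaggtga
Cdc20: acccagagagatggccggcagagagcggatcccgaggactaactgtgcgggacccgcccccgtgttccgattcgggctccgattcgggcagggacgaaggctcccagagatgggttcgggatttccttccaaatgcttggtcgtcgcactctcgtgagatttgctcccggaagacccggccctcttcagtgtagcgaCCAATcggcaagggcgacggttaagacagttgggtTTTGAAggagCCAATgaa
Top2a: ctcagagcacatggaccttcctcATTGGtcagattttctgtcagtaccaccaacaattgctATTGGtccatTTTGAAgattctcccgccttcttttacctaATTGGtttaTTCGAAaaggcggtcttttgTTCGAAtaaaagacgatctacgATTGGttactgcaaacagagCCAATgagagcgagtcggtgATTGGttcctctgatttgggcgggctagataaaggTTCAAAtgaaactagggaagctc
Counted from the annotated start as 0, the Mcm5 E2F matches begin at -153 and -149, on opposite strands and overlapping, and those of Mcm6 at -110, -106 and -47, of which the pair at -110 and -106 overlaps. Cdc20 has 1 CHR match, at -18, between CCAAT boxes at -53 and -8, and Top2a has 4, at -179, -140, -120 and -23, among 6 CCAAT boxes. A match is a string of letters and not a measured binding site. Within the replication set the 7 genes with an E2F match had a median change of -0.80 to DD16 and the 9 without of -0.87, with ranges that overlap (-1.21 to -0.40 and -1.25 to -0.54). From DD16 to DD23 the medians were -1.64 with a match and -1.31 without, and over the whole course -2.04 and -2.38, again with overlapping ranges. Within the mitosis set the 12 genes with a CHR match had -0.61 to DD16 and the 3 without had -0.64. From DD16 to DD23 they had -1.44 and -1.53.

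**Figure D3:**
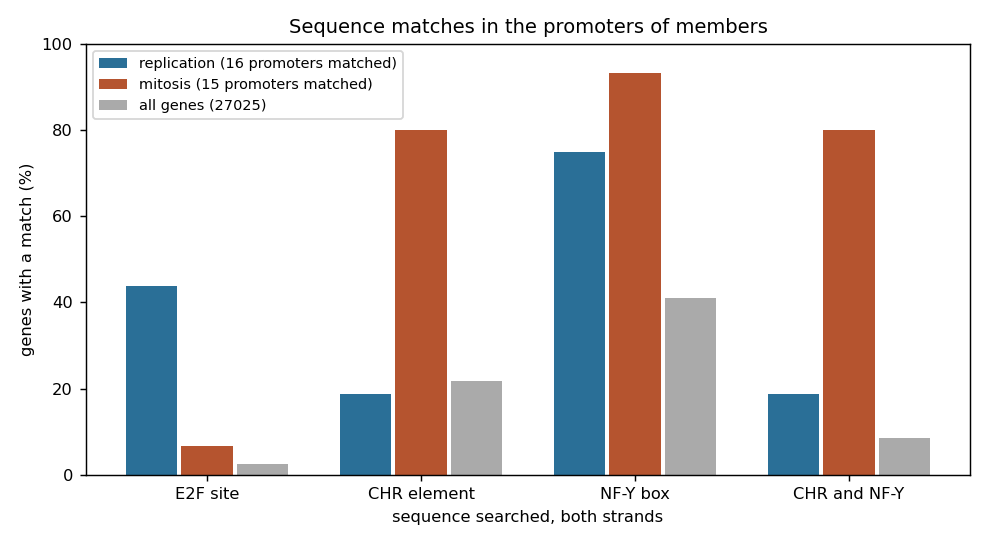
Percent of genes (vertical axis, from 0) whose promoter window holds a match to each kind of sequence (horizontal axis; NF-Y box is the CCAAT box), for 16 replication genes, 15 mitosis genes and 27025 genes of the table. E2F matches are at 43.75% in replication genes and 6.667% in mitosis genes, and CHR matches at 18.75% and 80%.

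The regulators did not share a course. Ccnd1, cyclin D1, which carries growth signals into G1 and is abundant in retinal progenitors, read 2.15, 4.74 and 2.42 in WT, 3.54, 5.14 and 2.97 in B4KO, and 3.98, 4.87 and 1.97 in Isl1KO. DD16 was the highest day in every line, and the lines were farthest apart at DD10. It rose by 1.69 (SE 0.41, adjusted p = 0.0212) and then fell by 2.47 (SE 0.41, adjusted p = 0.00601), the largest late fall of the 47. The rise did not pass without the DD16 array of any 1 line or the DD10 array of B4KO (adjusted p from 0.0588 to 0.0817), and its size ran from 2.59 in WT through 1.60 in B4KO to 0.89 in Isl1KO. Between DD10 and DD23 Ccnd1 changed by -0.77 (adjusted p = 0.149), with 0.27 in WT and negative values in both knockouts; without the DD10 array of WT it fell by 1.26 (adjusted p = 0.0238), and without that of Isl1KO the change was -0.26.

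E2f1, the activator of S phase genes, had the same peak at a smaller size. It read 1.13, 1.90 and 0.68 in WT, 1.63, 2.23 and 1.40 in B4KO, and 1.35, 2.15 and 0.31 in Isl1KO, and rose by 0.72 (SE 0.19, adjusted p = 0.0284) before it fell by 1.30 (SE 0.19). Its fall over the whole course, 0.57 (adjusted p = 0.0414), was lost without any 1 of the 3 WT arrays, the DD10 array of either knockout or the DD23 array of Isl1KO (adjusted p from 0.0666 to 0.147), and without the last of these the change was -0.32. E2f2, a sister activator, changed by -0.21 and fell by 1.22, and Foxm1, the activator of mitosis genes, changed by -0.44 and fell by 1.44. So E2f1 signal was highest on the day when 18 of 20 replication genes had already fallen.

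Mki67, the proliferation marker Ki-67, passed as lower only after DD16. It read 4.57, 4.21 and 3.05 in WT, 4.88, 4.35 and 3.52 in B4KO, and 4.37, 4.4 and 2.49 in Isl1KO; the DD16 value of Isl1KO lay within the DD10 values of the lines. Its change to DD16 was -0.28 (SE 0.19, adjusted p = 0.279), with -0.51 without the DD16 array of Isl1KO and -0.11 without that of B4KO. Its fall to DD23 was 1.30 (SE 0.19, adjusted p = 0.00430). Ccna2, cyclin A, which serves both S phase and mitosis, read 3.01, 2.89 and 1.66 in WT, 3.43, 3.05 and 2.27 in B4KO, and 2.96, 2.94 and 1.06 in Isl1KO, with -0.17 (adjusted p = 0.517) and then a fall of 1.30. Its early change was -0.36 without the DD16 array of Isl1KO and 0.0078 without that of B4KO, so its direction was not settled.

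Cyclin E with Cdk2 drives entry into S phase. Ccne1 read 2.02, 0.96 and 0.29 in WT, 2.26, 1.23 and 0.65 in B4KO, and 2.81, 1.33 and 0.22 in Isl1KO, with a fall of 1.19 (SE 0.19, adjusted p = 0.00563) to DD16 and of 0.79 to DD23. The later fall did not pass without any 1 of the DD16 arrays (adjusted p from 0.0588 to 0.0700). Cdk2 read -0.54, -1.03 and -2.52 in WT, -0.39, -1.03 and -2.31 in B4KO, and -0.45, -1.10 and -2.76 in Isl1KO, and fell by 0.59 and 1.48, the largest whole fall of a regulator at 2.07 (SE 0.10). Ccne2 was well above background at DD10 in B4KO and Isl1KO and at DD16 in Isl1KO, and on no DD23 array. Its measured day means were -4.74, -5.17 and -6.05. As each of these means holds values below background, no bound on the size of its fall is given.

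**Figure D4:**
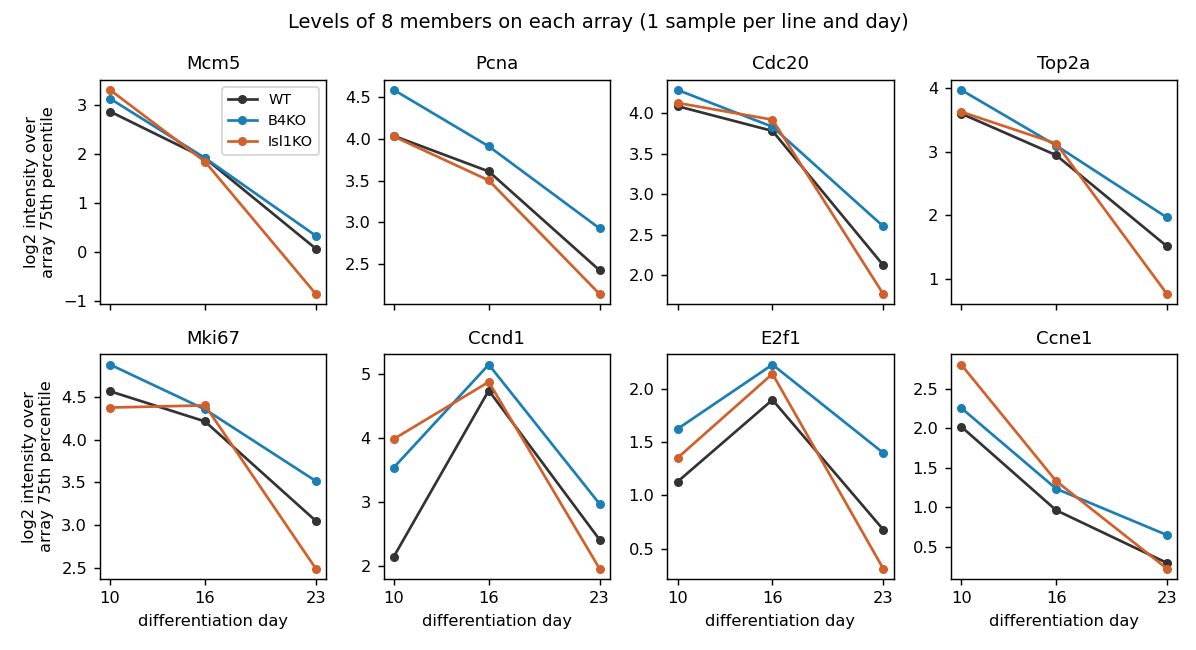
Level of 8 members (vertical axes, log2 intensity over the 75th percentile of the array, each with its own range) on differentiation days 10, 16 and 23 (horizontal axis) in WT, B4KO and Isl1KO, 1 array per point. Mcm5, Pcna, Cdc20, Top2a and Ccne1 go down at both steps, Mki67 stays level to DD16 in Isl1KO (4.37 and 4.4), and Ccnd1 and E2f1 peak at DD16.

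The lines differed in the share of the fall that lay before DD16. At DD16 the members had made 33.4% of their median log2 fall in WT, 47% in B4KO and 25% in Isl1KO. The interval from DD10 to DD16 is shorter than that from DD16 to DD23, and such shares are not set per day. For mitosis genes the shares were 32.9%, 44.3% and 19.2%, and for regulators 26.1%, 38.5% and 0.581%. The regulators were mixed in Isl1KO, where 5 of 9 went down to DD16. Their changes ran from -1.48 (Ccne1) to 0.89 (Ccnd1), with a median of -0.011. For the replication core WT and Isl1KO stood at 33.9% and 33.4%, with 45.2% in B4KO. Of the 46 members that were lower at DD23 than at DD10 in every line, 41 went down more from DD10 to DD16 in B4KO than in WT, against 50.7% of all genes, and 2 more from DD16 to DD23, against 46.7%. In Isl1KO 17 of the 46 went down more than in WT in the first interval, 12 of them replication genes, and all 46 in the second, against 51.2% and 48.7% of all genes. These counts compare single arrays and have no test, and both knockouts are set against the same WT arrays. The 12 housekeeping genes had median changes of -0.12 and -0.35 at the 2 steps in WT and -0.16 and -0.17 in B4KO. The members had -0.66 and -1.31 in WT and -0.86 and -1.06 in B4KO. For B4KO, line and slide cannot be told apart.

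At DD23 the Isl1KO array stood below WT in 46 of 47 members, where 51.4% of all genes stood above WT. The exception was Ccne2, below background on both. The median difference was -0.56 for the 20 replication genes, -0.47 for the 18 mitosis genes and -0.39 for the 9 regulators, and 0.03 for 12 housekeeping genes. Outside the members it was -0.37 for 64 mitosis genes (6 above WT) and -0.16 for 55 replication genes (15 above WT). It was 0.03 for 15 E2F, DREAM and MuvB genes and 0.07 for 9 G1 cyclins, kinases and their partners. On the same arrays it was 0.07 for 13 retinal progenitor markers and 0.32 for 10 photoreceptor markers, but -0.81 for 8 pigment epithelium markers, with 0 of them above WT, and -1.56 for 6 mesenchyme markers, with 1 above WT. The part of these cell types in the lower member values was not tested. Mcm5, Pole and Tk1 lay farther below WT than the median member (-0.45), with 0.07, 0.01 and 0.19 in WT and -0.85, -0.94 and -0.55 in Isl1KO. At DD10 and DD16, 33 and 34 members stood above WT in Isl1KO (51.9% and 50.5% of all genes), with medians of 0.09 and 0.12. The count at DD23 was 44 to 46 under the other scalings, background correction, filters and probe rules tried. In a limma model with an extra term for each knockout at DD23, all 47 members had a negative DD23 term for Isl1KO (median -0.60) and 20 had an unadjusted p under 0.05, against 4.92% of all genes. The term sets the DD23 difference from WT against its mean over DD10 and DD16. It was also negative in 12 of 13 retinal progenitor markers (median -0.29), 8 of 8 pigment epithelium markers (-0.43) and 60 of 64 mitosis genes outside the members (-0.43). Among all genes 49.6% were negative, and of 10 photoreceptor markers 1 was (median 0.46). After adjustment 0 members and 0 of 23594 genes passed (0% called), the smallest adjusted p of a member being 0.775, for Pole. The test has 2 residual degrees of freedom.

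For B4KO 46, 38 and 44 of 47 members stood above WT at DD10, DD16 and DD23, against 47.8%, 50.1% and 50.2% of all genes, with median differences of 0.26, 0.14 and 0.40. Housekeeping genes also read higher on the B4KO arrays, 12, 10 and 12 of 12, with medians of 0.16, 0.07 and 0.27. With every array centred on those 12 genes, 34 members at DD10 and 41 at DD23 stood above WT, with medians of 0.08 and 0.14. The extra term for B4KO at DD23 had a median of 0.18 over members, with 2 at an unadjusted p under 0.05, both below 0 (Cdc45 at -0.84 and Cdc6 at -0.64), against 6.06% of all genes, and 0 after adjustment (0% called). Both rest on the probe used. At DD23 the other Cdc45 probe read -4.12 in WT and -3.73 in B4KO, and the other Cdc6 probe -3.56 and -3.03, each higher in B4KO. For the term at DD10 the counts were 0 in B4KO and 1 in Isl1KO, Ccnd1 at 1.99 (adjusted p = 0.510), against 8.73% and 6.90% of all genes, and again 0 after adjustment (0% called).

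**Figure D5:**
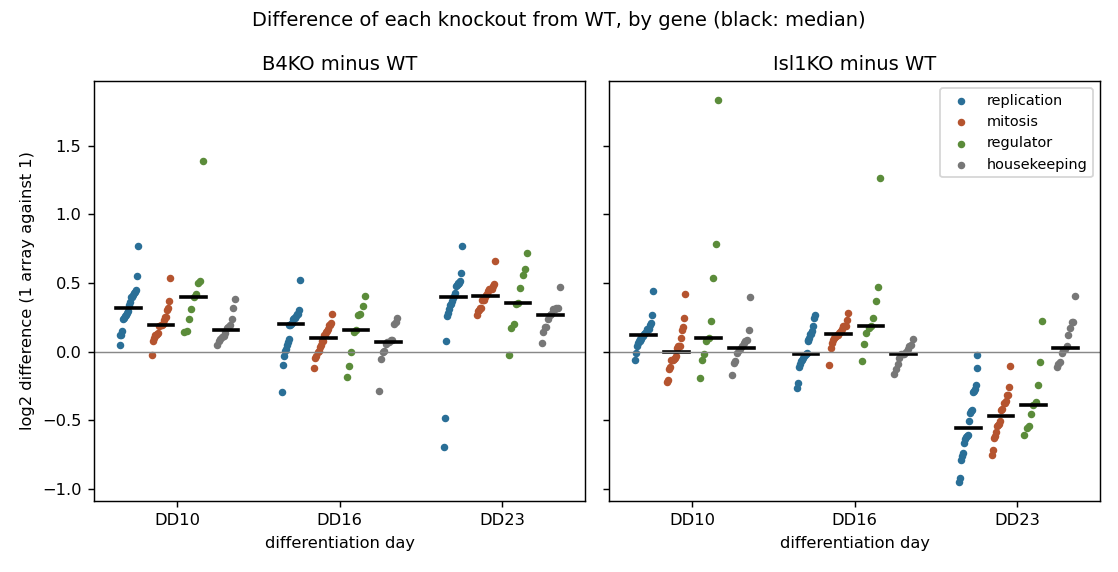
Difference of each gene between a knockout array and the WT array of the same day (vertical axis, log2) for replication, mitosis and regulator members and 12 housekeeping genes at DD10, DD16 and DD23 (horizontal axis); points are genes and black bars medians. In Isl1KO at DD23 all members but Ccne2 lie below 0, with medians of -0.56, -0.47 and -0.39 and housekeeping genes at 0.03, and in B4KO at DD10 and DD23 all 12 housekeeping genes lie above 0, as most members do.

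Averaged over days, few members differed between lines. Pcna was higher in B4KO than in WT by 0.45 (SE 0.10, adjusted p = 0.0215) and Mcm10 by 0.69 (SE 0.19, adjusted p = 0.0468), 2 of 47 members against 3.99% of all genes called higher; both were higher on all 3 days. Mcm10 read 1.83, 1.08 and -0.65 in WT, 2.60, 1.60 and 0.12 in B4KO, and 2.0, 1.01 and -1.28 in Isl1KO. Both calls were fragile: Mcm10 was lost without any 1 array but the DD23 array of Isl1KO (adjusted p from 0.0527 to 0.164) and Pcna without any WT array or the DD10 or DD23 array of B4KO (adjusted p from 0.0515 to 0.0932), and neither was called with arrays centred on housekeeping genes. The same 2 genes were lower in Isl1KO than in B4KO, by 0.58 and 0.87 (adjusted p = 0.00793 and adjusted p = 0.0212), against 3.8% of all genes; Mcm10 was lost there without the DD10 or DD23 array of B4KO or the DD16 array of Isl1KO (adjusted p from 0.0526 to 0.0789). Of all genes called between B4KO and WT 81.9% were lower in B4KO, a share that was 98.4% with housekeeping centring and 64.6% with normexp. Between Isl1KO and WT 0 members were called by limma and 0 had an unadjusted p under 0.05, against 0.00424% and 8.15% of all genes.

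The 1 gene called between Isl1KO and WT was Cdkn1c, a Cdk inhibitor (p57) outside the members, in a list of 20 inhibitors and exit genes. It read -1.41, -1.30 and -2.31 in WT, -1.69, -0.85 and -1.91 in B4KO, and 5.70, 5.44 and 4.38 in Isl1KO (difference from WT 6.85, adjusted p = 0.00184). Its part in the lower DD23 values of Isl1KO was not tested. Of that list 7 rose and 3 fell from DD10 to DD16, led by the antiproliferative genes Btg1 (1.78) and Btg2 (1.72) and, downward, by Pkmyt1 (-0.70) and Rbl1 (-0.46). From DD16 to DD23 it had 3 rises and 7 falls, with the stress gene Gadd45a at -2.62, Wee1, a kinase that restrains Cdk1, at -1.49, and Rbl2, an Rb relative, at 0.84. Cdkn2b, an inhibitor of Cdk4, passed as higher, but it was above background on 1 DD16 array and all DD23 arrays.

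Other genes of the pathway went with the members. Of 55 further replication genes 39 fell and 2 rose to DD16 (median -0.54), and 45 fell to DD23 (median -0.81). Orc1, the origin recognition subunit, fell by 2.08 and 2.22 with signal above background on 1 DD23 array, Pole2 by 1.28 to DD16 and the exonuclease Exo1 by 2.15 to DD23, while Rrm2b, a p53-inducible reductase subunit, and Mcm9 rose by 0.53 and 0.41. Of 64 further mitosis genes 30 fell and 1 rose to DD16 (median -0.50), and 63 fell to DD23 (median -1.35). Cenpw and Kif15 fell by 1.71 and 1.10 to DD16 and Dlgap5 and Ttk by 1.90 and 1.89 to DD23, and the phosphatase Cdc25b rose by 0.88.

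Of 9 further G1 cyclins, kinases and their partners 6 fell to DD16, Myc by 2.07 and Ccnd2, cyclin D2, by 1.23, and 0 rose by limma. Ccnd2 thus fell where its sister Ccnd1 rose. From DD16 to DD23, 6 fell, with Ccnd3 at -1.40 and Skp2 at -1.33, and Cdk6 rose by 0.69. Of 15 E2F, DREAM and MuvB genes 7 fell and 3 rose to DD16, with E2f5 and E2f7 at -1.06 and -0.99 and Mybl1 and Tfdp2 at 1.61 and 0.73, and 13 fell to DD23, E2f7 by 1.77 and E2f8 by 1.30.

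Markers of cell types moved over the same days. Of 13 retinal progenitor markers 6 rose and 4 fell to DD16, with changes from -3.15 to 2.19, and 9 fell to DD23. The median level of the list was highest at DD10 in every line. Gene by gene, the median change to DD16 was 0.46 in WT, -0.15 in B4KO and 0.21 in Isl1KO, with 5, 7 and 5 of 13 going down. The median level of that list was 3.47 to 3.98 over the lines at DD10, 3.30 to 3.45 at DD16 and 1.89 to 2.15 at DD23. Of 10 photoreceptor markers 8 and then 10 rose, from a median level of -4.82 to -3.39 at DD10 to 4.50 to 5.21 at DD23. Of 8 pigment epithelium markers tested 6 fell to DD16 and 3 to DD23, and of 6 mesenchyme markers 1 fell to DD16 and 2 rose and 1 fell to DD23. Of 7 pluripotency markers 1 fell at each step, and of 4 endothelial and blood markers 1 rose to DD16 and none passed to DD23. The part of these cell types in the changes of the members was not tested.

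For the changes between days, a choice of probe mattered for few members. A single probe carried 25 of the 47 and several carried 22. Among the latter, every probe above background on all 9 arrays had a negative late change, and all but 1 Top2a probe a negative early change. A dim Bub1 probe, above background on 2 arrays, went up by 2.64 to DD23, against a fall of 1.43 with the probe used. No annotation of build mm9 was used here, so exon and UTR positions of the probes are left out.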

How the data were processed

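RNA of 9 samples (3 lines on 3 days, 5 pooled organoids each) was hybridised to single-colour Agilent arrays. Per the file headers, the processed intensities come from Agilent Feature Extraction, with spatial and multiplicative detrending switched on; the submitters' processing notes give version 12.0.3.1. The deposited table holds the same intensities as a ratio to a constant of each array, where above 1, and was used as an alternative.

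Control spots and probes with an outlier flag were left out and spots of a probe averaged. The log2 intensity was set against the 75th percentile of the array's gene spots. Of 56605 gene probes, 32994 were named through RefSeq accessions (GRCm38.p6) and 23611 kept the name in the file. The brightest probe of a gene was kept if well above background on 3 of 9 arrays, which left 23594 genes. Changes were tested with limma 3.58.1 in R 4.3.3 with line and day as additive terms (4 residual degrees of freedom), with Benjamini-Hochberg adjustment over all genes. The model code was run on simulated data with known shifts and independent noise. That checks the code and not the p-values given here.

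The members and all gene lists, marker lists included, were chosen with earlier results of these data known. Values on every array are given for Mki67, Top2a and Ccnd1, for the largest 2 and the smallest change of each of the 3 sets at each step, and for members that differed between lines; Mcm6, Cdk1 and the rest are given by their changes. Of other pathway lists, up to 2 of the largest rises and falls that passed at each step are named. The marker lists are given by counts and medians. The DD23 levels of Tk1 are given outside the rule for members. The samples are 1 per group, and p-values measure the spread between lines around a shared course. Alternatives changed the scaling, background correction, filter, probe rule, variance model and arrays used.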

Additional observations from a re-analysis of the deposited data

How the results depend on the processing

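The falls of members from DD16 to DD23 (47; 42 to 47 under all settings run) and from DD10 to DD23 (46; 45 to 46) stayed within 1.5 times the main count under every setting run. The change of Ccna2 from DD10 to DD16 (-0.17, not called) turned to 0.0078 without the DD16 array of B4KO, the 1 result that reversed. Falls from DD10 to DD16 numbered 31 and 14 with WT and Isl1KO only; leaving out 1 array gave 16 to 36. Members called between B4KO and WT numbered 2, but 1 with quantile normalization, 1 with the percentile taken over probes above background on all arrays, 4 with normexp, 0 without a filter on background and 0 with housekeeping centring, and 0 to 7 with 1 array left out (7 without the DD23 array of Isl1KO). Between Isl1KO and B4KO they numbered 2, but 7 with normexp, 5 with the filter at all 9 arrays and 10 with a trended, robust variance model, and 1 to 3 with 1 array left out. The whole-course difference of replication core and mitosis was -0.40, -0.28 with all 20 replication genes, and -0.44 to -0.38 with 1 array left out; the early one (-0.28) ran from -0.36 to -0.18 and the late one (-0.10) from -0.14 to -0.06. The cause of these changes was not tested. Of the values of single genes under alternatives, 602 kept their direction and side of the threshold, 53 lost the call, 6 gained it and 1 reversed. Housekeeping centring, and the counts of members above or below WT under other settings, were chosen after seeing the data. Line is a term of the model, so the days are compared within lines; no block on replicate numbers was fitted, since each group holds 1 sample and the labels carry no such numbers. Signal over background limits Ccne2, above background on 3 of 9 arrays.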
